A study of Mus musculus with 6 samples.

Results

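Elastic fibres let a matrix stretch and recoil. A core of elastin is laid down on a scaffold of microfibrils, which are built from fibrillins and decorated by microfibril-associated proteins. Fibulins join the elastin to the scaffold and to lysyl oxidases, the enzymes that cross-link it. Microfibrils also hold latent TGF-beta, and the fibrillin-1 precursor is the source of asprosin, a hormone released by white fat.

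The 10 genes described here encode fibrillins (Fbn1, Fbn2), microfibril-associated proteins (Mfap5, Mfap4), fibulins (Fbln1, Fbln2, Fbln5, Efemp1, Efemp2) and elastin (Eln). They were chosen by symbol, and all 10 had a row among the 54752 genes listed in each table. The samples were total RNA of the mouse fibroblast line 3T3-L1, which stores fat after hormonal induction: 3 libraries of preadipocytes and 3 of adipocytes. The labels give the strain C57BL/6J, the tissue embryo, no treatment and 1 medium description (BCS medium, DMI, FBS) for both groups, and the source name reads adipocyte for all 6 libraries although titles and cell types separate the groups, so the agents and the day that separate the groups are not stated. The line is usually described as derived from Swiss mice, and it is 1 clonal line. Whether the replicates came from separate cultures is not stated, so a p-value here reflects the spread among these libraries alone, which may be technical.

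Total expected counts were 22496486 to 26314076 per library. Marker genes were read as a check of the labels. All 6 adipocyte markers were higher in adipocytes, with summed levels of 91.99 to 98.01 TPM (transcripts scaled to a fixed total per library) in preadipocytes and 19170 to 21570 TPM in adipocytes, and Pparg, Fabp4, Adipoq and Plin1 were among them. All 7 preadipocyte and fibroblast markers were lower, Dlk1 included, and their summed level fell from between 15540 and 16310 to between 1078 and 1190 TPM. Of 6 endothelial markers 2 were tested and none passed (Pecam1 and Vwf), Tie1 had 0 counts in every library, and the list summed to 0.64 to 1.24 TPM and then 0.23 to 0.75 TPM. Of 6 macrophage markers 3 were tested and 2 were lower (Csf1r and Cd14), Adgre1 had 0 counts in every library, and the list summed to 6.29 to 8.02 TPM and then 2.20 to 4.12 TPM. Of 7 smooth muscle markers, 4 were lower (Acta2, Tagln, Smtn and Mylk) and 2 higher (Myh11 and Des), and their summed level was 284.6 to 328.3 TPM in preadipocytes and 73.15 to 83.01 TPM in adipocytes. Of 5 chondrocyte markers 2 were tested and Sox9 was lower, Matn1 had 0 counts throughout, and the list summed to 37.36 to 46.67 TPM and then 2.64 to 2.99 TPM. Of 5 osteoblast markers Runx2 was lower and the scarce genes Sp7 and Alpl were higher, with summed levels of 39.11 to 41.39 TPM and then 3.51 to 3.79 TPM. Csf1r had 10 adipocyte counts and passed the filter on low counts only through preadipocytes. Sp7, Alpl and adipocyte markers such as Adipoq and Plin1 passed it only through adipocytes, so these calls are a description. The marker genes outside the adipocyte list and Dlk1 were named after their values were seen. The part of these markers in the results was not tested.

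Elastic fibre and microfibril transcripts were lower in adipocytes for every gene that could be tested. With an adjusted p under 0.05 in edgeR as the call, 9 of 9 tested genes were lower and 0 higher, where 73.5% of all 14726 tested genes were called, 37.9% as lower and 35.7% as higher. With limma on log2(TPM + 1) the split over all genes was 8328 lower and 3266 higher, and with total counts alone it was 7481 and 3914, in place of 5575 and 5252. The 9 genes were lower under both. In 9 of 9 all adipocyte libraries lay below all preadipocyte libraries, as they did for 39.7% of all tested genes. A fall of at least 4-fold was found for 7 genes (11.2% of all tested genes) and of at least 8-fold for 6 genes (6.27%). The median log2 fold change was -3.24, also with Efemp1 set to the bound given below, beside -0.06 over all tested genes. Efemp1 and Mfap5 passed the filter on low counts only through their preadipocyte libraries, so these counts cannot stand as support. Fbn2 had no counts and was not tested. In bulk RNA, fewer cells of a type and less RNA per cell cannot be told apart.

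**Figure D1:**
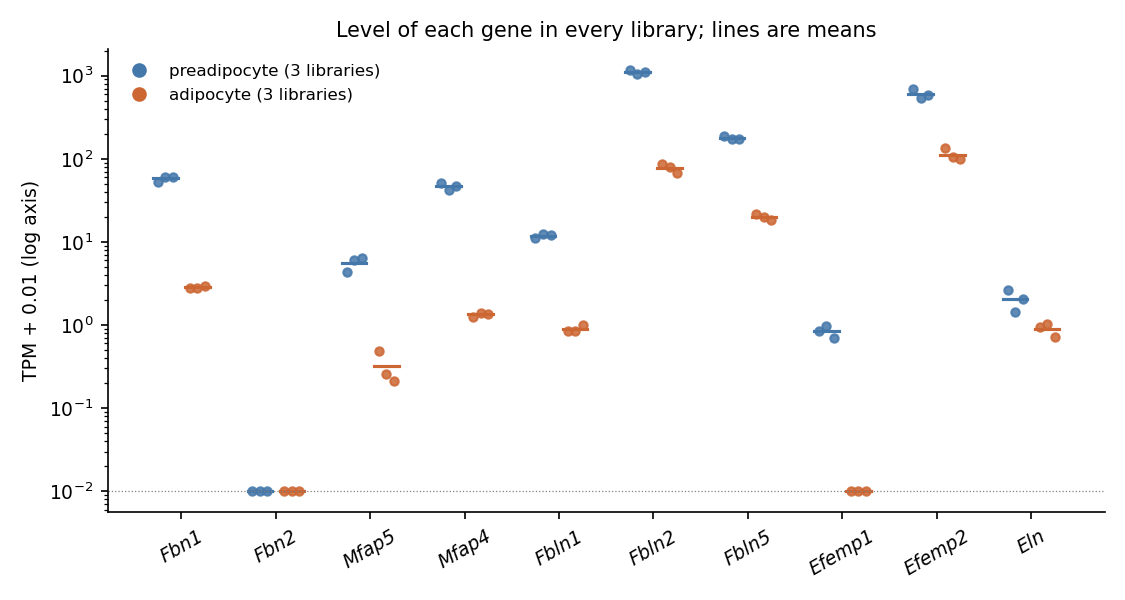
TPM + 0.01 of each gene (log axis) in 3 preadipocyte (blue) and 3 adipocyte (orange) libraries, with lines at the means; a point on the dotted line has a TPM of 0. Each of the 9 detected genes sits lower in all adipocyte libraries, and Fbn2 is at 0 throughout.

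Fbn1 encodes fibrillin-1, the main building block of microfibrils. The gene (ENSMUSG00000027204.13) lies on the minus strand of chromosome 2 from 125300594 to 125507993 in GRCm38. Its level was 52.42, 60.47 and 60.74 TPM in preadipocyte libraries 1 to 3, and 2.80, 2.78 and 2.94 TPM in adipocyte libraries 1 to 3. The adipocyte values were close to one another and far below every preadipocyte value. The log2 fold change was -3.89 (SE 0.079, edgeR adjusted p = 2.16e-09), a 14.85-fold difference. The annotated gene Gm9913 (125505089 to 125507881) lies within Fbn1, near its start, on the opposite strand. Of the 31-base words of the Fbn1 transcripts, 19.9% also occur in other genes. Gm9913 itself was given 47.5 counts over the 6 libraries, beside 24860 for Fbn1.

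Fbn2 encodes fibrillin-2, the fibrillin best known from embryonic microfibrils. It had 0 counts in all 6 libraries. A count of 0 allows up to 3 counts, which is 0.109 to 0.140 CPM (counts scaled to library size) in a single library and covers counting error only. Set against the 23496 Fbn1 counts of the preadipocyte libraries, those 3 counts would be 0.0128% of the reads of both fibrillin genes. Only 1.06% of its 31-base words occur in other genes. Fibrillin transcripts were detected from Fbn1 alone in both states, and the planned ratio of Fbn2 to Fbn1 was not computed.

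Mfap5 (microfibril-associated glycoprotein 2) binds fibrillin and carries an integrin-binding site. The gene lies on chromosome 6 from 122505845 to 122529290, plus strand. Its level was 4.32, 6.09 and 6.39 TPM in preadipocyte libraries and 0.48, 0.25 and 0.20 TPM in adipocyte libraries. These values rest on 68, 70 and 84 counts in preadipocytes against 7, 5 and 3 in adipocytes. The fall was 12.5-fold (log2 fold change -3.64, SE 0.28, edgeR adjusted p = 2.99e-06), and limma on log2(TPM + 1) gave a smaller log2 value of -2.32. Because Mfap5 passed the filter on low counts only through preadipocytes, its adjusted p is a description and no support. Mfap4, a fibrinogen-like protein that binds elastin, fibrillin and collagen, was the more abundant of the pair, at 51.51, 42.49 and 47.65 TPM in preadipocytes and 1.25, 1.39 and 1.35 TPM in adipocytes. Mfap4 lies on chromosome 11 from 61485431 to 61488900, plus strand. The groups lay far apart, and the fall was 24.1-fold (log2 fold change -4.59, SE 0.14, edgeR adjusted p = 1.36e-08). The 3′ end of Mfap4 overlaps the oppositely oriented gene Mapk7 by 89 bases, so a few reads of that stretch cannot be assigned without strand. Mapk7 had 6836 counts over the 6 libraries, beside 36, 36 and 37 Mfap4 counts in the adipocyte libraries.

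Fbln2 encodes fibulin-2, a large fibulin that binds fibrillin-1, fibronectin and basement membrane proteins. Its gene spans 91212455 to 91272540 on the plus strand of chromosome 6. It was the most abundant of the 10 genes in preadipocytes, at 1159.82, 1057.19 and 1103.09 TPM. In adipocytes it measured 87.60, 79.23 and 66.80 TPM. The lowest preadipocyte library was far above the highest adipocyte library, and the fitted fall was 9.45-fold (log2 fold change -3.24, SE 0.15, edgeR adjusted p = 1.11e-07). Fbln1 encodes fibulin-1, a close relative found in elastic fibres and basement membranes, and its gene spans 85205949 to 85286535 on the plus strand of chromosome 15. It was scarce beside Fbln2, at 11.24, 12.37 and 12.16 TPM in preadipocytes and 0.83, 0.84 and 0.99 TPM in adipocytes. Its fall was of similar fitted size, 9.28-fold (log2 fold change -3.21, SE 0.12, edgeR adjusted p = 3.9e-08).

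The short fibulins act directly in elastic fibre assembly. Fbln5 encodes fibulin-5, which binds tropoelastin, lysyl oxidase-like 1 and integrins (chromosome 12, 101746565 to 101819055, minus strand). It measured 187.63, 170.95 and 174.09 TPM in preadipocytes and 21.74, 19.82 and 18.44 TPM in adipocytes, with no overlap. The fall was 5.98-fold (log2 fold change -2.58, SE 0.10, edgeR adjusted p = 4.51e-08). Efemp2 encodes fibulin-4, which brings lysyl oxidase to tropoelastin (chromosome 19, 5473954 to 5482517, plus strand). It measured 686.87, 542.32 and 584.28 TPM in preadipocytes and 133.64, 103.74 and 98.86 TPM in adipocytes. Library 1 was the highest of its group in both states, and the groups did not overlap. Efemp2 fell 3.77-fold (log2 fold change -1.92, SE 0.16, edgeR adjusted p = 5.72e-06), the smallest fall among the fibulins. Its 3′ end overlaps Mus81 on the opposite strand by 173 bases, and Mus81 had 3083 counts over the 6 libraries.

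Efemp1 encodes fibulin-3 and lies on chromosome 11 from 28853204 to 28926743, plus strand. It was near the limit of detection in preadipocytes, at 0.84, 0.96 and 0.69 TPM from 23, 15 and 19 counts. It had 0 counts in each adipocyte library. With a floor of 3 counts over the adipocyte libraries together, it was at least 16.4-fold lower in adipocytes (edgeR adjusted p = 0.000175). This bound takes the preadipocyte mean as exact. Efemp1 passed the filter on low counts only through preadipocytes, so its adjusted p is a description and no support. The fitted fold change depends on the prior count of the tool and is not given as a size.

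The upstream sequences of 4 fibulin genes are shown as a description, and their part in the lower levels was not tested. Entries were found for 6 of the 10 genes, and those of Fbn1 and Fbln2 are not shown because they lie in annotated exons. Each run is the stretch before a RefSeq transcript start on GRCm38.p6, 5′ to 3′ on the strand of the gene, without bases in annotated exons. Capitals mark GGGCGG on either strand, the core of the GC box.

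Fbln1 (chr15:85205699-85205948, plus strand): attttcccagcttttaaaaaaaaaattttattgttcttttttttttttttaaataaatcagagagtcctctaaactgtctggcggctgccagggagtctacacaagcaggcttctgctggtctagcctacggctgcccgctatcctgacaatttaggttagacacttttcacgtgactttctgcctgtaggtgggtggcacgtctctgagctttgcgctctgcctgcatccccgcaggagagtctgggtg
Fbln5 (chr12:101819120-101819369, minus strand): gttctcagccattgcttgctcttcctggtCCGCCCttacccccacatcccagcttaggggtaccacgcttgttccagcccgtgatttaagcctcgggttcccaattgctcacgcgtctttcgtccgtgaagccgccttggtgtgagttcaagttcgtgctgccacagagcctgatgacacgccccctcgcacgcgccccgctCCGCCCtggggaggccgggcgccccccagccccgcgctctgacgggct
Efemp1 (chr11:28852955-28853203, plus strand): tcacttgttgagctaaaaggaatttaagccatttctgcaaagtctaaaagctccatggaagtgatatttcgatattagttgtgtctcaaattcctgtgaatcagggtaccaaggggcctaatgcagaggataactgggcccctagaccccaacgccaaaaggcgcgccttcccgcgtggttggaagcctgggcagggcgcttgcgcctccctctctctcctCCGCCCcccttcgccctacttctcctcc
Efemp2 (chr19:5473696-5473945, plus strand): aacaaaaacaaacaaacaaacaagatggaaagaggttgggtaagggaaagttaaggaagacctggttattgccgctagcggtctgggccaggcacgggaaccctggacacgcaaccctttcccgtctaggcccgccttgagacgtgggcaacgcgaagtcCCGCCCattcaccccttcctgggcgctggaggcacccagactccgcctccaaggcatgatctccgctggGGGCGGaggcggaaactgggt

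The 4 stretches differed in base composition, with 46.4% G and C for Fbln1, 53.6% for Efemp1, 59.2% for Efemp2 and 65.2% for Fbln5 over the 250 bases before the start. Next, 6 motifs were searched on both strands in the 250 bases before each listed start of these 6 genes. GGGCGG occurred before at least 1 start of 6 of 6 genes, where 35.4% of 27025 genes with an entry had it. For Fbln1 the match lay before its other listed start, not in the stretch shown. The windows searched kept their exon bases, and those of Fbn1 and Fbln2 lay wholly in annotated exons. The share over all genes was not matched for base composition. TATAAA occurred in 0 of 6 (14.3% of genes), GGAATG in 0 of 6 (14.4%) and the CArG box in 0 of 6 (1.62%). CCAAT occurred in Fbln5 only (37.5% of genes), and TGANTCA in Efemp1 only (7.82%). Genes with several listed starts had more sequence to match, and matches of different motifs were allowed to overlap. The motifs were chosen after these windows had been seen, and a match is a description of letters.

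Eln encodes tropoelastin, the monomer of the elastic core, and lies on the minus strand of chromosome 5 from 134702593 to 134747323. It was among the scarcest of the detected genes, at 2.60, 1.44 and 2.03 TPM in preadipocytes and 0.93, 1.03 and 0.70 TPM in adipocytes. The counts were 121, 71 and 102 against 58, 53 and 44. The groups did not overlap, but the gap was small beside the spread within preadipocytes. The fall was 1.63-fold (log2 fold change -0.71, SE 0.22, edgeR adjusted p = 0.0186), the smallest of the 9 genes. Eln did not pass without preadipocyte library 1 (log2 fold change -0.51, adjusted p = 0.0644) or without adipocyte library 3 (-0.53, adjusted p = 0.0818), nor with the effective length of each library as an offset (-0.68, adjusted p = 0.0514) (adjusted p in the range 0.00233 to 0.0818 under the alternatives).

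**Figure D2:**
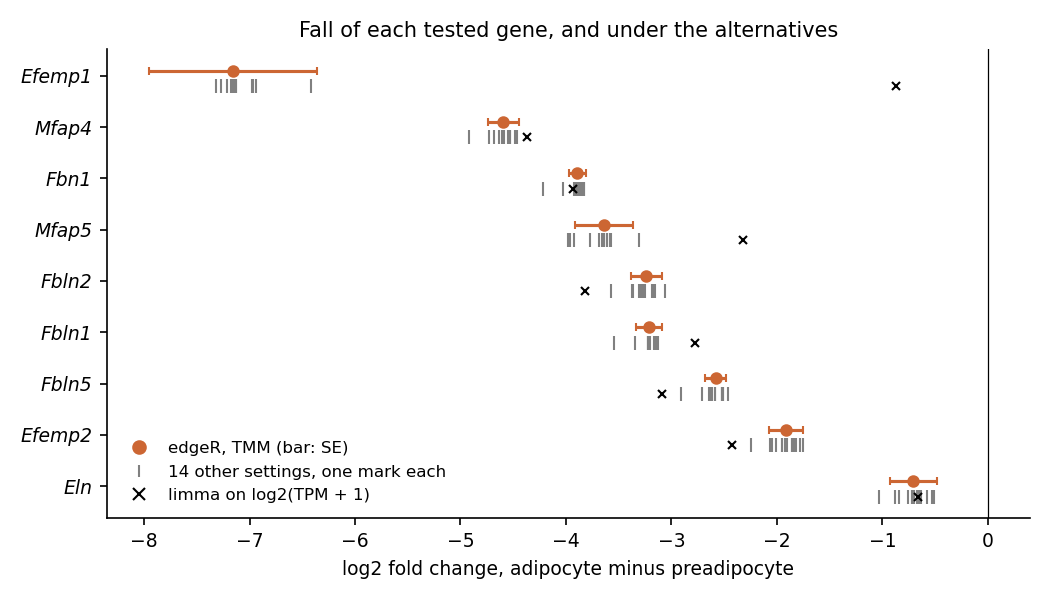
Log2 fold change (adipocyte minus preadipocyte) of the 9 tested genes from edgeR with TMM factors (orange, bar of 1 SE), with the same value under 14 other settings (grey marks) and with limma on log2(TPM + 1) (cross). Every value is below 0, and Eln lies nearest to it, while limma gives -0.87 for the scarce gene Efemp1, whose edgeR value depends on the prior count and is no size.

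Within the list of all tested genes ranked from the largest fall, Mfap4 stood at place 248, Fbn1 at 464, Mfap5 at 570, Fbln2 at 774 and Fbln1 at 793 of 14726. Fbln5 followed at place 1178 and Efemp2 at 1754, and Eln stood at 4148. Efemp1 is left out of this order because its fitted value is not a size. Eln was last, behind the fibrillin and the fibulins.

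The order of levels also differed between the states. In preadipocytes the order by mean TPM was Fbln2, Efemp2, Fbln5, Fbn1, Mfap4, Fbln1, Mfap5, Eln, Efemp1 and Fbn2, and no neighbours overlapped in range. In adipocytes Efemp2 stood first at 112.1 ± 18.8 TPM and Fbln2 next at 77.9 ± 10.5 TPM (SD, n = 3). Eln (0.70 to 1.03 TPM) and Fbln1 (0.83 to 0.99 TPM) overlapped there, and Fbn2 and Efemp1 were both at 0. Together the 10 genes took 2157, 1894 and 1991 TPM in preadipocyte libraries and 249.3, 209.1 and 190.3 TPM in adipocyte libraries, a geometric mean 9.36-fold lower. Fbln2 made up 55.0% ± 1.08 of that sum in preadipocytes and 36.05% ± 1.60 in adipocytes, and Efemp2 29.9% ± 1.69 and 51.7% ± 2.01 (SD, n = 3). The share of Fbln5 was 8.82% ± 0.18 and 9.30% ± 0.51 (SD, n = 3). These shares describe mRNA and do not depend on scaling between libraries.

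**Figure D3:**
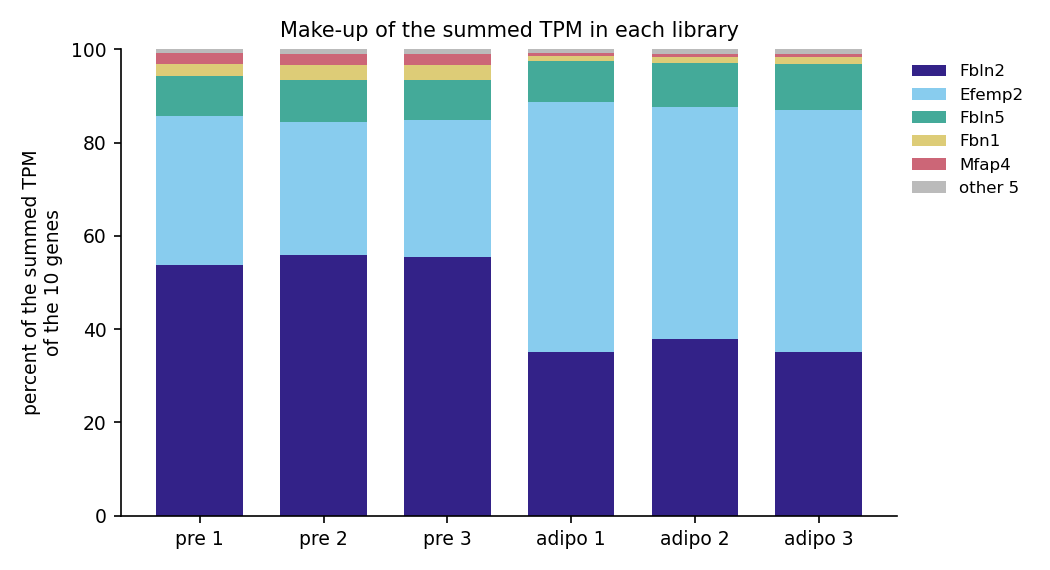
Share of the summed TPM of the 10 genes taken by each gene, as stacked bars from 0 to 100% for each of 3 preadipocyte and 3 adipocyte libraries. Fbln2 is the largest block in the preadipocyte bars and Efemp2 in the adipocyte bars, while Fbln5 keeps a block of similar height.

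Ratios within a library give the balance of parts free of scaling between libraries. Elastin was 4.96%, 2.38% and 3.34% of the Fbn1 level in preadipocytes and 33.2%, 37.05% and 23.8% in adipocytes. The ratio of Eln to Fbn1 was thus 9.08-fold higher in adipocytes (log2 difference 3.18), although both genes were lower there. Mfap5 was 8.39%, 14.3% and 13.4% of the Mfap4 level in preadipocytes and 38.4%, 18.0% and 14.8% in adipocytes. The adipocyte values were all above the preadipocyte ones, but the nearest were 14.8% and 14.3%, and the adipocyte ratios rest on 3 to 7 Mfap5 counts. The log2 difference of 0.93 was 0.53 without adipocyte library 1 and 0.29 without both libraries numbered 1. Fbln1 was 0.969%, 1.17% and 1.10% of the Fbln2 level in preadipocytes and 0.948%, 1.06% and 1.48% in adipocytes, and these ranges overlapped (log2 difference 0.10). Two-sided exact permutation tests gave p = 0.10 for Eln to Fbn1, 0.10 for Mfap5 to Mfap4 and 0.90 for Fbln1 to Fbln2 (0.15, 0.15 and 0.90 after Benjamini-Hochberg adjustment over 3 ratios). The smallest p that an exact permutation test of 3 libraries against 3 can give is 0.10. The ratio of Efemp1 to Efemp2 was not computed because Efemp1 had no counts in adipocytes.

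**Figure D4:**
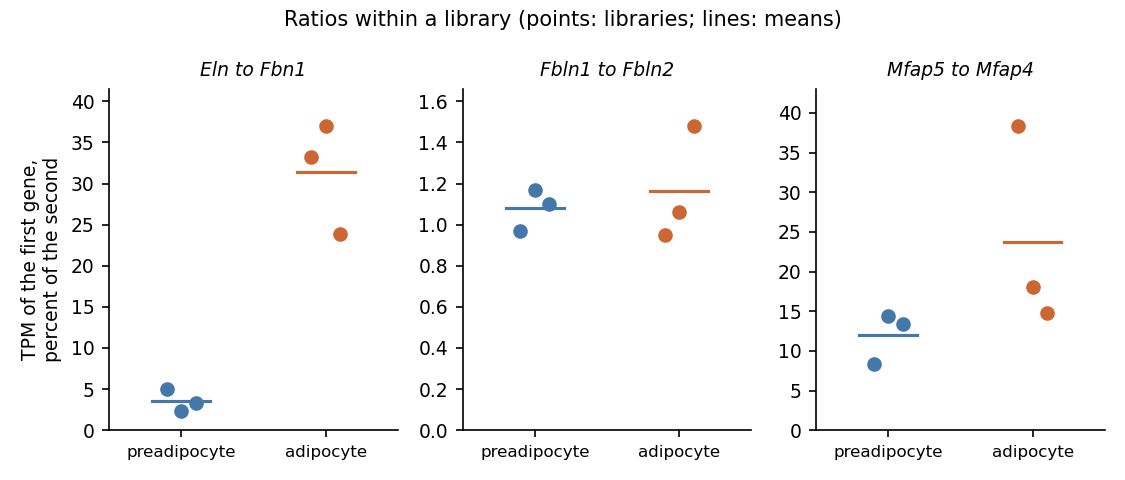
TPM of one gene as a percent of its partner within each library, for Eln to Fbn1, Fbln1 to Fbln2 and Mfap5 to Mfap4, with points for the 3 libraries of each state and lines at their means; each axis starts at 0. Eln to Fbn1 lies at 23.8% to 37.05% in adipocytes against 2.38% to 4.96% in preadipocytes, and Fbln1 to Fbln2 overlaps.

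The deposited tables also give a transcript length per gene, an average over annotated transcripts weighted by their estimated abundance. For Fbn1 it was 9727, 9652 and 9638 bases in preadipocytes and 8998, 9415 and 9282 bases in adipocytes. For Fbln2 it was 4117, 4040 and 4019 bases against 4373, 4134 and 4181 bases, and for Fbln5 2314, 2336 and 2321 bases against 2373, 2370 and 2447 bases. These 3 genes did not overlap between states (exact permutation p = 0.10 each, the smallest possible). Efemp2 did overlap, with means of 1535 and 1529 bases (exact permutation p = 0.70). How often this length separates the states over all genes was not counted, so these values are a description and no trait of these genes. The transcripts behind the averages were not resolved here. The test with an offset used the effective length, a separate column, and not the lengths printed here. It moved the log2 fold changes of Fbn1, Fbln2, Fbln5 and Efemp2 to -3.82, -3.30, -2.63 and -1.91.

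The other genes of elastic fibres were read from lists. Over all 14726 tested genes, 37.9% were called lower and 35.7% higher, and the median log2 fold change was -0.06. The counts and medians of the lists stand beside these values, without a test of any list. Of 19 genes for other microfibril-associated proteins, emilins, hemicentins and ADAMTS-like proteins, 14 were tested, 12 were lower and 0 higher, with a median log2 fold change of -2.16. Mfap3, the weakest of the 12 (-0.30, named after its values were seen), lost its call in 8 of 15 alternatives. Adamtsl3, which encodes a secreted ADAMTS-like glycoprotein, had the largest fitted fall (log2 fold change -4.57, SE 0.27), but only -1.03 with limma on log2(TPM + 1), where Fbln7 fell by more (-3.50). Adamtsl3, Hmcn1 and Hmcn2 passed the filter on low counts only through preadipocytes, the group where they were higher. The count and median of the list are therefore a description. Mfap2, the relative of Mfap5 that binds fibrillin, had a log2 fold change of -3.75 (SE 0.27) and Fbln7, a further fibulin, of -3.77 (SE 0.13). Both were named after their values were seen. Mfap2 rests on 29 adipocyte counts over 3 libraries, and its log2 value ran from -4.08 to -2.97 under the alternatives. Its adipocyte mean of 0.43 CPM lay near the filter minimum of 0.414 CPM, so its fall is a description too. Mfap3l (0.46) and Mmrn2 (0.35) did not pass, and both passed upward with the effective length offset (0.69 and 1.31), Mfap3l also without adipocyte library 1 (0.655).

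Lysyl oxidases cross-link elastin and collagen with the help of copper. All 6 genes of the list were lower, with a median log2 fold change of -2.89. Atp7a, a copper pump gene and the weakest of the 6 (-0.36, named after its values were seen), lost its call without preadipocyte library 2 (-0.31), preadipocyte library 3 (-0.31) or adipocyte library 2 (-0.34). Lox had the largest fall (log2 fold change -5.12, SE 0.13, edgeR adjusted p = 4.38e-09). Loxl1, whose product binds fibulin-5 and was named after its values were seen, fell by 1.98 (SE 0.19), from 527.7 ± 68.4 to 133.4 ± 35.4 CPM (SD, n = 3).

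Latent TGF-beta binding proteins dock on fibrillin microfibrils. In the list of these proteins and their ligands, 4 of 7 genes were lower and 2 higher, with a median of -2.30. Ltbp4, which also binds fibulin-5, fell furthest (log2 fold change -4.09, SE 0.17). Ltbp3 rose by a log2 value of 0.475 (SE 0.089) and Tgfb1 by 0.435 (SE 0.076), but with total counts alone neither passed (0.15 and 0.11) and with limma on log2(TPM + 1) both turned (-0.05 and -0.09). Tgfb2 did not pass (0.375, edgeR adjusted p = 0.0899), but it did with the library number as a replicate block (0.378, adjusted p = 0.00221), with RLE factors (0.43) with DESeq2 (0.43), with no filter on low counts (0.43), without adipocyte library 1 (0.52) and without both libraries numbered 1 (0.357).

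Enzymes that cut elastin and their inhibitors were lower as well, in 8 of 8 tested genes of 12 listed, with a median of -3.92. The gelatinase gene Mmp9 fell from 47.4 ± 0.96 to 0.193 ± 0.035 CPM (SD, n = 3; log2 fold change -7.91, SE 0.14), and limma on log2(TPM + 1) gave -4.78. It rests on 13 adipocyte counts and passed the filter only through preadipocytes. The inhibitor gene Timp3, named after its values were seen, had a log2 fold change of -5.04 (SE 0.11). Among receptors and processing enzymes, 9 of 11 tested genes of 12 listed were lower, with a median of -1.79, and 7 to 9 were lower under the alternatives, where Furin and Itga8 lost their calls. The integrin gene Itgb8 had the largest fitted fall (log2 fold change -3.33, SE 0.39), from 97 to 8 counts over 3 libraries, but -0.32 with limma on log2(TPM + 1). Itgb8 and Itga8 passed the filter only through preadipocytes. The genes higher in adipocytes were Glb1 (0.61, SE 0.12) and Neu1 (0.43, SE 0.12), whose lysosomal enzymes are tied to the elastin-binding complex. Ctsa, listed beside them and named after its values were seen, was lower (-1.05, SE 0.12, and -1.57 to -0.895 under the alternatives). The complex itself was not measured. With limma on log2(TPM + 1) neither Glb1 nor Neu1 passed (0.07 and -0.06), and Neu1 was also lost with total counts alone (0.10).

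Regulators known to act on elastic fibre genes went both ways, with 11 of 15 tested genes of 16 listed lower, 2 higher and a median of -0.66. Under the alternatives 9 to 13 were lower, and Tgfbr2 and Sp1 lost their calls in some of them. The repressor and activator gene Klf4 fell furthest (log2 fold change -3.02, SE 0.090). Cebpb, an early adipogenic factor, rose by 1.06 (SE 0.22, and 0.505 with limma). Smad2, a transducer of TGF-beta signals, rose by 0.62 (SE 0.076), with 0.30 under total counts and 0.12, not past the threshold, with limma. Srf (0.001) and Tgfbr1 (0.05) did not pass, and with limma on log2(TPM + 1) both passed as lower (-0.46 and -0.47, adjusted p = 0.036 and 0.046).

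**Figure D5:**
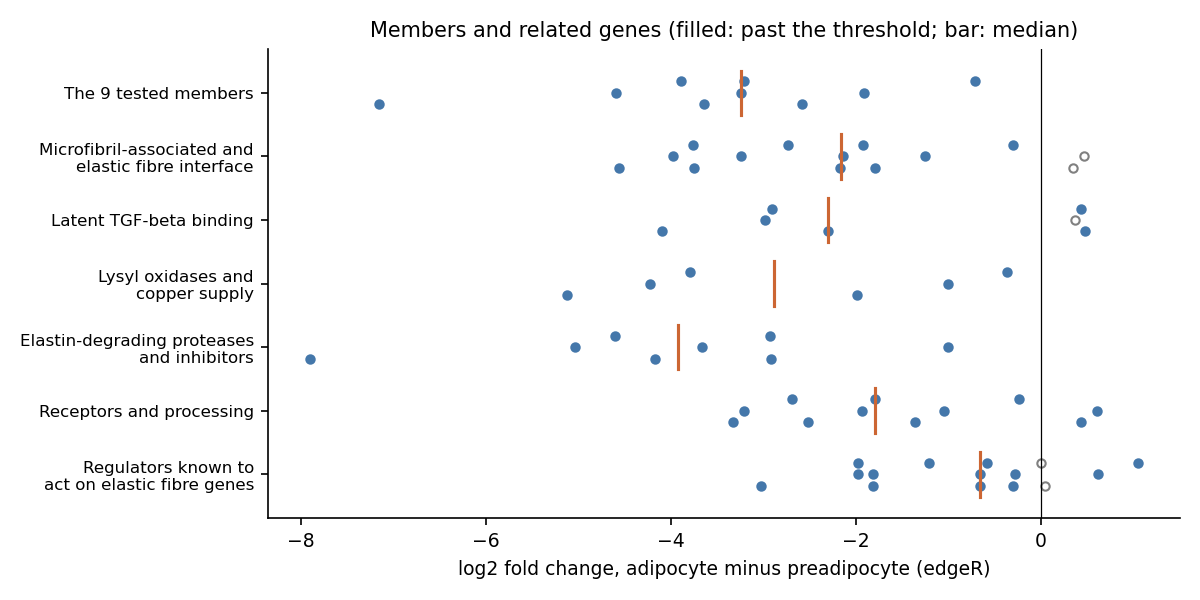
Log2 fold change (adipocyte minus preadipocyte, edgeR) of the 9 tested genes and of 6 lists of related genes, 1 point per gene, filled where the adjusted p was under 0.05, with an orange bar at each median. The elastic fibre genes and the protease and lysyl oxidase lists lie wholly below 0, and the regulators spread to both sides.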

How the data were processed

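The authors deposited 1 gene table per library. Its columns, per the file headers, hold lengths, expected counts, TPM and FPKM. The submitters' processing notes name Bowtie, Bowtie2, DESeq2 and RSEM, with the builds GRCm38 and mm10, while for versions, roles and strandedness the sources used here give nothing. The deposited expected counts are unscaled estimates in which shared reads are divided by a model, the deposited TPM are scaled within a library, and the deposited FPKM were not used. Identifiers were matched without version to GENCODE M21 (GRCm38), 54723 of 54752. RefSeq gave the upstream sequences.

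Expected counts were rounded and filtered with filterByExpr (at least 0.414 CPM in 3 libraries). They were compared with the quasi-likelihood F-test of edgeR 4.0.16 (R 4.3.3, TMM factors, group as the only term, Benjamini-Hochberg adjustment). The test was first run on data simulated from preadipocyte means, with few genes changed and as many up as down. In the real data most genes were called, so the simulation does not bear on the scaling between these groups. CPM use TMM-scaled library sizes, so CPM and TPM differ in scale between states. Ratios used log2(TPM + 0.01). The genes and lists were chosen with earlier results of these data known. From each list, the largest fall and rise past the threshold with at least 1 CPM were named. Any other gene of a list was named after its values were seen. The main fit and the permutation tests of ratios and lengths given above were unpaired. Library numbers were taken as pairs in some alternatives only. The reason was that deviations from group means correlated at 0.66, 0.30 and 0.26 for equal numbers, all above 0.1. Unequal numbers also correlated above it in some cases, at 0.45 for preadipocyte 2 with adipocyte 3 and 0.16 for preadipocyte 3 with adipocyte 2. Alternatives were other scaling factors, DESeq2 1.42.0, limma 3.58.1 on log2(TPM + 1), no filter, a length offset, a replicate block and leaving out libraries.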

Additional observations from a re-analysis of the deposited data

How the results depend on the processing

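Of 135 values of the 9 tested genes under 15 alternatives, 132 kept their direction and side of the threshold, 3 (all of Eln, given above) missed it and 0 turned, and 8 to 9 genes were lower and 0 higher in each. Against TMM factors, the median over all genes moved by -0.133 (log2) when upper-quartile factors were used, by -0.327 under total counts and by -0.48 in limma on log2(TPM + 1), where 3266 genes were higher. The replicate block left 9 genes lower and changed no call but that of Tgfb2 among the genes named here. Among microfibril-associated genes, 2 were higher with the length offset, 0 to 1 with single libraries left out and 1 without both libraries numbered 1, an alternative added after the data were seen. Higher genes in the latent TGF-beta list numbered 0 under total counts and 0 in limma, in the receptor list 1 and 0, and in the regulator list 1 in limma. Direction turned in limma for Ltbp3 (-0.047), Tgfb1 (-0.088), Neu1 (-0.061), Tgfb2 (-0.044), Srf (-0.458) and Tgfbr1 (-0.468). Under upper-quartile factors and total counts it turned for Srf (-0.132 and -0.327) and Tgfbr1 (-0.085 and -0.277), and under the replicate block for Srf (-0.003). With single libraries left out, Srf ran from -0.13 to 0.184, Tgfbr1 from -0.066 to 0.19 and the Fbln1 to Fbln2 difference from -0.088 (without adipocyte library 3) to 0.233. A pseudocount of 1 TPM moved that difference to 1.04 and the Mfap5 to Mfap4 difference to 2.04. With numbers paired, the 3 ratios kept their values. The exact sign-flip p was 0.25 for Eln to Fbn1 and for Mfap5 to Mfap4, the smallest that 3 pairs can give. The summed log2 difference was -2.98 in CPM and -3.23 in TPM. In each of these, the cause was not tested. Counts per library were lowest for Efemp1 (0 to 23), Mfap5 (3 to 84) and Eln (44 to 121), which sets the counting error of their values, and its part in the lost calls of Eln was not tested.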
